A study of Mus musculus with 12 samples.

Results

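The Myc, Pim and Id growth genes were followed across 12 mouse samples titled for 2 forms of the growth hormone receptor. The genes were Myc, Mycn and their partner Max, the kinases Pim1, Pim2 and Pim3, and the inhibitors Id1, Id2 and Id3. They were found by symbol, taking every spot whose single gene symbol was one of these names. Of the 9 genes, 8 had a spot among 15081 named genes, each with 1 spot, and Pim3 was not analysed here. The sample titles give 4 groups of 3 arrays, NLS 1GH, NLS 0GH, WT 1GH and WT 0GH, and mark the 3 arrays of a group as b, c and d. Arrays of one letter share the red dye incorporation that the labels give, so values are also set side by side within letters. WT is the usual abbreviation for wild type and NLS for a nuclear localization signal, and GH stands for growth hormone. Human growth hormone at 100 ng/ml is given for every sample, those titled 0GH included. The samples are labelled as part of a time course, but the 0 and the 1 carry no unit, so the groups are named by those numbers. Every title also holds a 10 after the receptor name, which the labels do not explain. The labels name no cell type, no strain and no promoter for the receptor, and they do not say whether the letters are separate cultures or lines. The p-values therefore measure only the spread between these samples, which may be technical.

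MYC and its relative MYCN are transcription factors that bind DNA as dimers with MAX and raise genes for ribosome assembly, metabolism and cell division. PIM kinases are serine/threonine kinases that are active once they are made, so that their level is set largely by transcription, which cytokine receptors raise through STAT5. ID proteins lack a DNA-binding region, bind E proteins and keep them off DNA, and are known as early targets of BMP signalling and of mitogens. Growth hormone acts through a receptor of the cytokine family that uses JAK2 and STAT5, and members of all 3 families are known as growth-responsive genes.

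RefSeq promoter windows of 300 bases (build GRCm38.p6) were found for 7 of the 9 genes, Max, Mycn, Pim1 with 2 windows, Pim2, Pim3, Id2 and Id3. Myc and Id1 are named only. Each window was searched on both strands for CACGTG, the E-box that dimers with MAX bind, which 7.15% of 32851 windows hold. The windows of Max and Pim1 that hold it are shown in part because these are the listed genes with that box beside their start site, with the box in capitals.
Max, minus strand, chr12:76962246-76962305: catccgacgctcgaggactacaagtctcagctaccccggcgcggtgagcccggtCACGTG
Pim1, plus strand, chr17:29493000-29493059: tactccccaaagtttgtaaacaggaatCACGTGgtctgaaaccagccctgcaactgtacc
The box began 3 bases before the start site of Max and 58 bases before the second start site of Pim1. TTCNNNGAA, the form of site that STAT5 binds, was found in 8.30% of all windows and in none of those of the listed genes. CANNTG, a looser E-box that includes CACGTG, was in 72.3% of all windows. These matches describe letters in short windows, and no array value bears on binding there.

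On each array the sample was labelled with Cy3 and a common embryonic reference RNA with Cy5. All levels below are log2 ratios of sample over reference, relative to the median spot of the same array, so 0 means the ratio of the median spot. The arrays held 15939 to 19700 values each among all 23040 spots, and 12.5% to 29.2% of the 22138 spots that are no controls had none. A spot was tested where every group had at least 2 values, which held for 16063 spots. Median levels of the marker lists were 0.70 for B lymphoid genes, 0.10 for erythroid and megakaryocyte genes, -0.13 for T lymphoid genes, -0.66 for mast cell genes and -2.06 for myeloid genes. In that order, 7 of 10, 4 of 7, 2 of 5, 1 of 7 and 2 of 7 genes lay above 0. Genes of one list went both ways, with Blnk at -3.03 among B lymphoid genes and Prtn3 at 3.74 among myeloid genes. The medians therefore name no cell type. Fibroblast, epithelial and hepatocyte markers lay at -3.29, -2.20 and -4.69. Each of these last lists shares genes with the embryo genes that set the sign of the ratios. Their low levels are therefore no separate evidence on the samples. Between NLS and WT (NLS minus WT), markers of erythroid cells and megakaryocytes differed by a median of -0.91, with 2 of 7 genes higher in NLS. Over all tested spots, 46.9% were higher in NLS with GH numbers averaged. The 2 higher genes were Itga2b and Gp1bb of megakaryocytes, while Pf4 of the same cells was lower. The mean level of this list ran from -1.95 to 0.27 over NLS arrays and from -0.91 to 1.56 over WT arrays. Myeloid markers differed by a median of 0.24, with 5 of 7 genes higher in NLS. Higher in NLS were also 5 of 10 B lymphoid, 1 of 5 T lymphoid and 2 of 6 mast cell genes. The same held for 4 of 7 fibroblast, 1 of 5 epithelial and 2 of 6 hepatocyte genes. The median differences of these other lists ran from -0.19 to 0.36. The part of these markers in the results below was not tested.

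The 8 spots gave 84 of 96 possible values. Max, Pim1, Id1 and Id3 were measured on all 12 arrays, Myc on 11, Mycn on 10, Id2 on 9 and Pim2 on 6. NLS arrays lacked 3 of 48 member values and WT arrays 9 of 48, while all spots together were missing at a mean of 20.6% on NLS arrays and 19.4% on WT arrays. By letter, b arrays lacked 8 of 32 values, c arrays 3 and d arrays 1. The arrays of letter b also had the most missing spots among all spots, with a mean of 26.5%, against 17.3% for letter c and 16.2% for letter d. Before centring, no member ratio exceeded 8.36 in size, the log2 range of a 16-bit scanner over the authors' control-channel floor of 200. Among all spots that are no controls, 1861 values over the 12 arrays did.

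**Figure D1:**
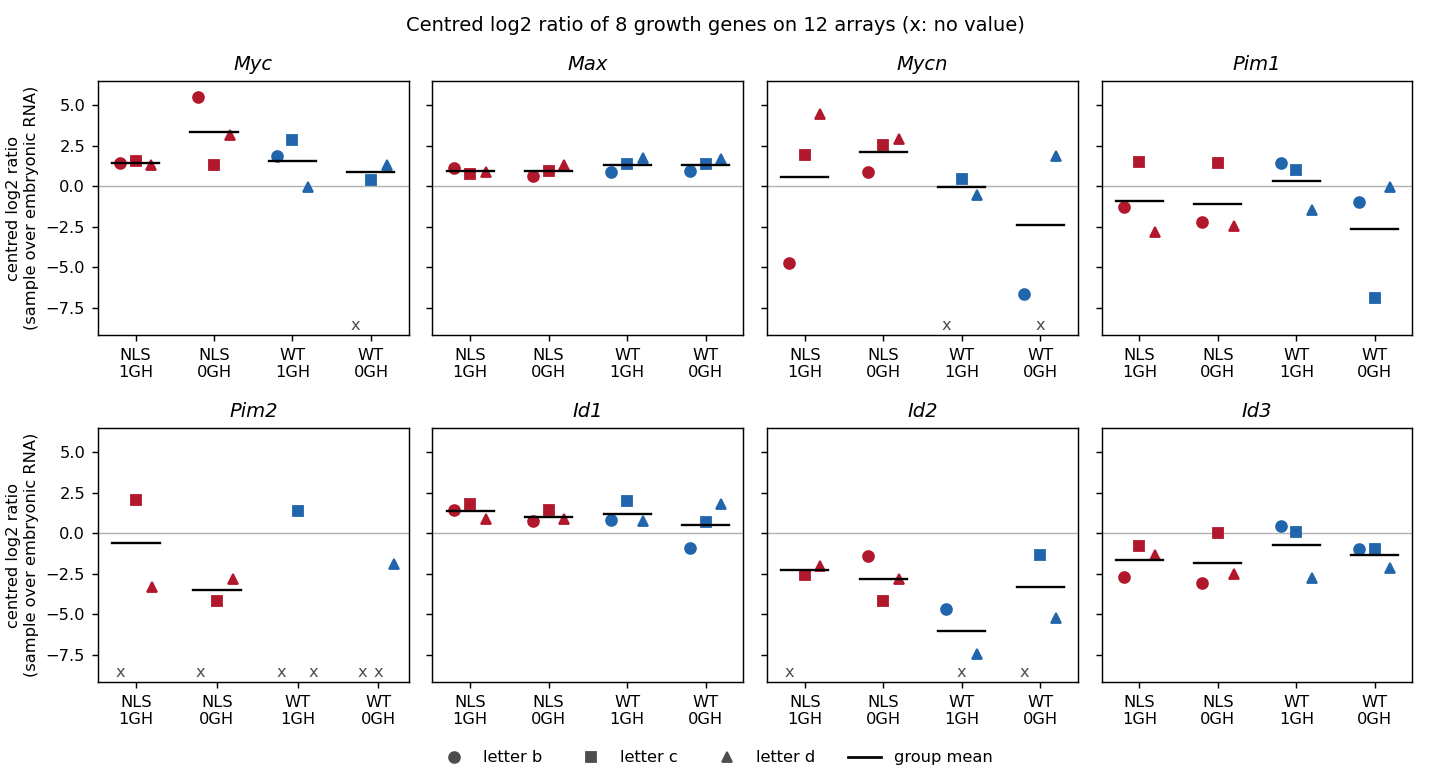
Level of each member on each array (log2 sample over reference, relative to the array median, vertical axis) by group, with points for the replicate letters b, c and d, a bar at the mean of groups with 2 or more values, and a cross where an array has no value. Max and Id1 lie in narrow bands, while Mycn, Pim1, Pim2 and Id2 spread over more than 6 log2 units, and the extreme arrays differ from gene to gene.

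The 7 tested members showed no difference that passed in any comparison. For NLS minus WT averaged over GH numbers, 0 of 7 members passed limma's adjusted threshold, as did 0 of 16063 spots (0%). At an unadjusted p under 0.05 the same comparison held 0 of 7 members, beside 908 spots, or 5.65%. Differences of Myc, Mycn, Pim1, Id1 and Id2 were above 0 and those of Max and Id3 below, so 5 of 7 were above 0, beside 46.9% of all spots. The 95% confidence intervals of all 7 hold 0. At 0GH alone, 0 of 7 had an unadjusted p under 0.05, beside 5.30% of spots.

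For 1GH minus 0GH averaged over receptor forms, 0 of 7 members passed in limma, again with 0% of all spots, and 0 of 7 had an unadjusted p under 0.05, beside 3.41%. The differences were -0.61 (SE 0.81) for Myc, 0.39 (SE 2.08) for Mycn, -1.12 (SE 1.05) for Id2 and 0.42 (SE 0.73) for Id3, each with an adjusted p of 0.9998. With Pim1 and Id1, 4 of 7 were above 0, beside 51.5% of all spots. Taken by receptor form, 0 of 7 members had an unadjusted p under 0.05 in NLS, beside 3.63% of spots, and 0 of 7 in WT, beside 2.94%. For the difference of differences it was 0 of 7, beside 3.11%. The comparisons by receptor form and by GH number share arrays, so their values are not separate evidence.

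**Figure D2:**
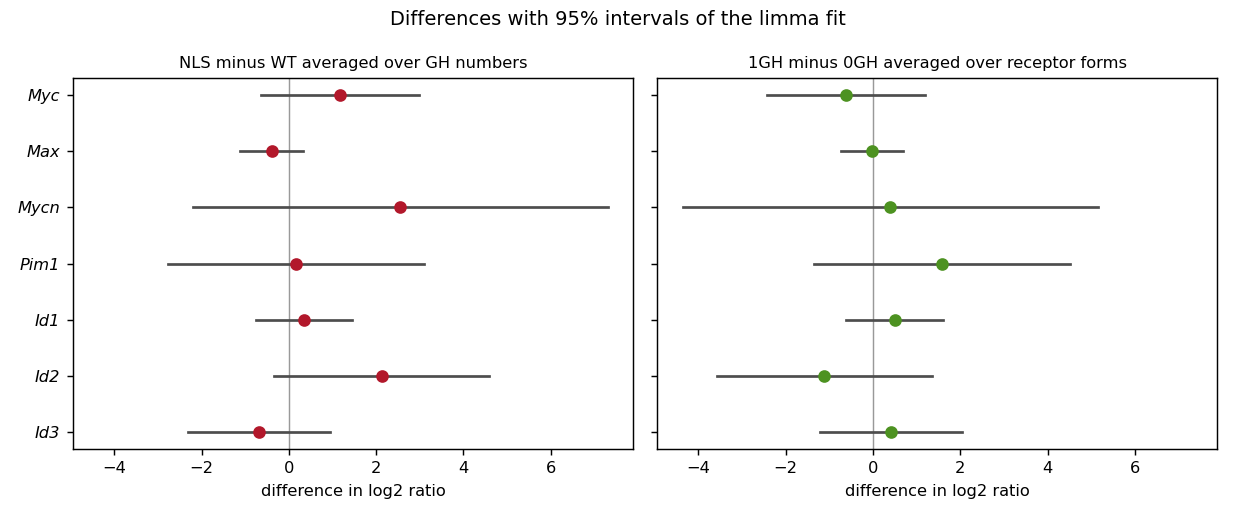
Differences of NLS minus WT averaged over GH numbers and of 1GH minus 0GH averaged over receptor forms for the 7 tested members (log2, horizontal axis), with 95% confidence intervals from limma. Every interval crosses 0, and those of Mycn and Pim1 are the widest while that of Max is the narrowest.

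Myc, the founding member of its family, lay above the array median on 10 of 11 arrays. In NLS 1GH arrays its level was 1.42, 1.54 and 1.32 for letters b, c and d, and in NLS 0GH arrays 5.52, 1.28 and 3.18. WT 1GH arrays gave 1.84, 2.86 and -0.08, and WT 0GH arrays 0.41 and 1.33 for letters c and d, with no value for b. Group means were 1.43 ± 0.11 in NLS 1GH, 3.33 ± 2.12 in NLS 0GH, 1.54 ± 1.49 in WT 1GH (SD, n = 3 each) and 0.87 ± 0.65 in WT 0GH (n = 2). The NLS 1GH arrays were the closest together, and the highest level was the b array of NLS 0GH, whose counterpart in WT 0GH is the missing one. All other groups overlapped with NLS 0GH.

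The mean Myc difference between NLS and WT over both GH numbers was 1.17 with an SE of 0.81 and a 95% confidence interval from -0.64 to 2.98 (limma, adjusted p = 0.922). Within letters, NLS was above WT in 3 of 5 pairs. At 0GH the difference of NLS minus WT was 2.46 (SE 1.20), with an adjusted p of 0.944 in limma. Without the b array of NLS 0GH it was 1.36. The averaged difference was 0.62 without that same array. Between 1GH and 0GH, the Myc difference was -1.90 (SE 1.07) in NLS arrays (limma adjusted p = 0.9997), and -0.80 without that array. The test of whether the GH difference itself differed between receptor forms gave -2.57 (SE 1.61) for NLS minus WT (limma adjusted p = 0.9995), and -1.48 without that b array. Averaged over receptor forms, the Myc difference of 1GH minus 0GH was -0.61 with all arrays and -0.067 without it.

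Mycn, which takes the place of Myc in several developing tissues, was the most variable tested member. Its levels were -4.72, 1.90 and 4.47 in NLS 1GH arrays and 0.90, 2.57 and 2.92 in NLS 0GH arrays for letters b, c and d. WT 1GH arrays gave 0.47 and -0.52 for c and d, and WT 0GH arrays -6.63 and 1.85 for b and d. The lowest values in NLS and in WT were both b arrays. Its SD over 10 arrays was 3.48, and 98.5% of tested spots had a lower SD. The mean difference of NLS minus WT was 2.55 (SE 2.08, 95% confidence interval -2.21 to 7.31, limma adjusted p = 0.922). In all 4 pairs of one letter that could be formed, Mycn was higher in NLS, by 1.07 to 7.53. WT had no value for letter b at 1GH, where NLS was at its lowest with -4.72, nor for letter c at 0GH. The count thus rests on which WT values are missing, and the share of all spots with such a count was not taken. The difference was 0.43 without the b array of WT 0GH and 4.67 without the d array of WT 0GH, and those 2 arrays lay 8.48 apart.

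Max, the dimer partner that both Myc proteins need, was the steadiest member. It lay above the array median on 12 of 12 arrays, between 0.61 and 1.72, with an SD of 0.36, and 4.71% of tested spots had a lower SD. NLS 1GH arrays gave 1.11, 0.77 and 0.86 and NLS 0GH arrays 0.61, 0.93 and 1.34 for b, c and d. In WT the levels were 0.90, 1.38 and 1.72 at 1GH and 0.92, 1.37 and 1.71 at 0GH. Within letters b, c and d, 1GH minus 0GH in WT was thus -0.02, 0.01 and 0.01, while the 3 letters of WT 1GH spanned 0.82. NLS minus WT was -0.39 (SE 0.32, 95% confidence interval -1.11 to 0.32, limma adjusted p = 0.922), with NLS lower in 5 of 6 pairs of one letter. Averaged over receptor forms, 1GH minus 0GH was -0.02 (SE 0.32), and its interval of -0.74 to 0.69 holds changes in either direction.

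The other genes of the MYC and MAX network were described from a list of 12, of which 9 were tested with 1 spot each. For NLS minus WT averaged over GH numbers, 5 of 9 differences were above 0 with a median of 0.02, beside 46.9% above 0 and a median of -0.05 over all 16063 tested spots. None passed in limma, and 2 had an unadjusted p under 0.05, both with NLS lower, beside 3.08% of all tested spots in that direction. Both are MXD proteins, which pair with MAX and oppose MYC at the same boxes. Mxd3 differed by -2.27 (SE 0.84, limma adjusted p = 0.869) and Mxd1 by -2.94 (SE 1.07, limma adjusted p = 0.869). Mxi1, another MXD protein, went the other way at 0.57 (SE 0.45, limma adjusted p = 0.922). Its difference was 1.90 (SE 0.66) at 0GH and -0.75 (SE 0.60) at 1GH. In the GH comparison averaged over receptor forms, 5 of 9 were above 0 with a median of 0.02, beside 51.5% and 0.02 for all spots. There 0 of 9 had an unadjusted p under 0.05, beside 3.41% of all spots.

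Genes known to be bound and raised by MYC in many cell types were mostly above 0 for NLS minus WT. Of 34 tested spots, for 32 of 38 listed genes, 30 had a difference above 0, with a median of 0.95. Over all tested spots 46.9% were above 0, with a median of -0.05. None passed limma's adjusted threshold, 12 had an unadjusted p under 0.05 with NLS higher and 0 with NLS lower, beside 2.57% and 3.08% of all tested spots. The smallest p-values were those of Mybbp1a, which binds MYB and takes part in ribosome assembly, at 1.44 (SE 0.36, limma adjusted p = 0.812), and Eif5a, a translation factor, at 1.65 (SE 0.44, adjusted p = 0.812). Nop58, a core protein of small nucleolar RNA particles, differed by 1.07 (SE 0.31) and Odc1, the first enzyme of polyamine synthesis, by 1.28 (SE 0.38), each with the same adjusted p. At 1GH, the list's median for NLS minus WT was 1.04, 1.03 and 0.34 within letters b, c and d. At 0GH it was 0.75, 1.64 and 0.67, while the medians of all spots in these 6 pairs lay between -0.10 and 0.10. The list was drawn up with earlier results of these arrays in hand, and overlaps gene groups already described in them, so its count is no independent evidence. In the GH comparison averaged over receptor forms, 11 of 34 spots were above 0 with a median of -0.16, beside 51.5% and 0.02 for all spots. The smallest p there was that of Ncl, nucleolin of the nucleolus, at -0.93 (SE 0.44, limma adjusted p = 0.9998).

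**Figure D3:**
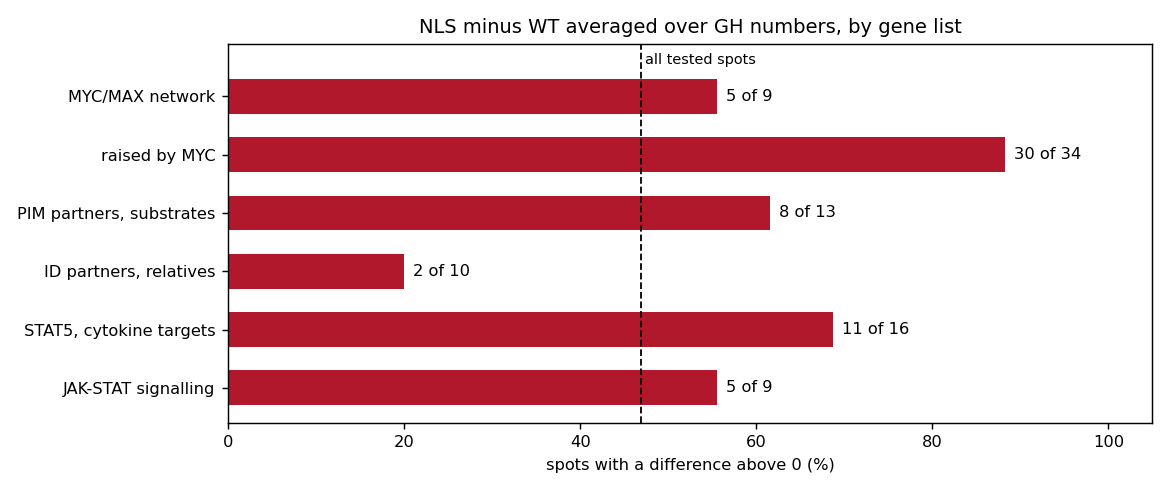
Share of the tested spots of each gene list with a difference of NLS minus WT above 0, averaged over GH numbers (percent, horizontal axis), with the count beside each bar and a dashed line at 46.9%, the share of all tested spots. The bar of genes raised by MYC is the longest, at 30 of 34, that of ID partners and relatives the shortest, at 2 of 10, and no spot of any list passed limma's adjusted threshold. The lists were drawn up with earlier results of these arrays known, so the bars are no independent evidence.

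Pim1, the kinase first found as an insertion site of leukaemia virus in mice, varied widely between arrays. NLS 1GH arrays gave -1.28, 1.48 and -2.85 and NLS 0GH arrays -2.21, 1.42 and -2.48 for letters b, c and d. WT 1GH arrays gave 1.47, 1.01 and -1.50 and WT 0GH arrays -0.95, -6.91 and -0.02. In NLS the letter c arrays stood above b and d at both GH numbers, whereas in WT 0GH the letter c array was the lowest of all 12. Group means were -0.88 ± 2.19 in NLS 1GH, -1.09 ± 2.18 in NLS 0GH, 0.33 ± 1.60 in WT 1GH and -2.63 ± 3.74 in WT 0GH (SD, n = 3 each).

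For Pim1, a known STAT5 target, 1GH minus 0GH was 2.96 (SE 1.87) in WT arrays (limma adjusted p = 0.9998). It was 0.81 without the c array of WT 0GH, and over all single arrays or letters left out it ran from 0.47 to 5.17. Averaged over receptor forms the difference was 1.58 (SE 1.33, 95% confidence interval -1.36 to 4.52), and 4 of 6 pairs of one letter were higher at 1GH. This averaged difference was 0.51 without the c array of WT 0GH. NLS minus WT averaged over GH numbers was 0.16 (SE 1.33, limma adjusted p = 0.996) and -0.91 without the c array of WT 0GH. The direction of this receptor difference turned under 5 of the 15 single arrays or letters left out.

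Pim2, a kinase related to Pim1 that acts on cell survival and translation, had a value on 6 arrays and was not tested. Its levels were 2.07 and -3.29 in NLS 1GH arrays (letters c and d) and -4.16 and -2.82 in NLS 0GH arrays (c and d). One array gave a value in each WT group, 1.38 at 1GH (letter c) and -1.92 at 0GH (letter d). No array of letter b measured it. In the 2 NLS pairs, letter c was 6.23 higher at 1GH and letter d was 0.47 lower, so the pairs did not share a direction. A count of 6 values or fewer was found for 18.9% of spots, and spots with 6 values had a median SD of 2.32, against 1.01 for those with 12.

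Among partners and substrates of PIM kinases, 13 spots for 12 of 16 listed genes were tested. Averaged over GH numbers, 8 of 13 differences of NLS minus WT were above 0 with a median of 0.04, beside 46.9% of all spots. None passed in limma and 1 of 13 had an unadjusted p under 0.05, a share close to the 5.65% of all spots. That spot was Eif4ebp1, a brake on cap-dependent translation, at 2.38 (SE 0.90, limma adjusted p = 0.869). Between 1GH and 0GH, 4 of 13 were above 0 with a median of -0.14, beside 51.5% of all spots. The smallest p was that of Snd1, a coactivator that PIM1 binds, at -1.27 (SE 0.50, limma adjusted p = 0.9998). Snd1 was the 1 of 13 spots under an unadjusted p of 0.05 there, beside 3.41% of all spots.

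Id1, an inhibitor of E proteins, was above the array median on 11 of 12 arrays. NLS 1GH arrays gave 1.44, 1.80 and 0.89 and NLS 0GH arrays 0.76, 1.46 and 0.90 for letters b, c and d. In WT 1GH arrays it had levels of 0.81, 1.99 and 0.76, and in WT 0GH arrays -0.91, 0.73 and 1.81. Only the b array of WT 0GH was below 0. NLS minus WT was 0.34 (SE 0.50, 95% confidence interval -0.76 to 1.45, limma adjusted p = 0.964), and -0.02 without that b array. Its 1GH minus 0GH difference was 0.49 (SE 0.50, 95% confidence interval -0.61 to 1.60, limma adjusted p = 0.9998), and 0.13 without it.

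Id2, the ID protein needed for natural killer and innate lymphoid cells, was below the array median on all 9 arrays that measured it. NLS 1GH arrays gave -2.59 and -2.00 for c and d, and NLS 0GH arrays -1.41, -4.21 and -2.83 for b, c and d. WT 1GH arrays gave -4.69 and -7.44 for b and d, and WT 0GH arrays -1.36 and -5.25 for c and d. At 1GH the 2 NLS values were above the 2 WT values, and at 0GH the NLS and WT values overlapped. The difference of NLS minus WT at 1GH was 3.77 (SE 1.55), with an adjusted p of 0.9998 in limma. It was 2.40 without the d array of WT 1GH and 2.10 without the letter d arrays.

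Id2 was the 1 of 7 tested members under an unadjusted p of 0.05 for NLS minus WT at 1GH, beside 3.53% of all tested spots. It was also the one tested member with NLS wholly above WT there, which held for 5.96% of all spots and for 20.5% of the 672 spots that, like it, had 2 values in each group. The 2 NLS and the 2 WT arrays share only letter d. Over both GH numbers the difference was 2.13 (SE 1.05, 95% confidence interval -0.34 to 4.60, limma adjusted p = 0.906). It was 0.33 without the letter d arrays and 3.60 without those of letter c. In WT, 1GH minus 0GH was -2.76 (SE 1.55, limma adjusted p = 0.9998), and -0.82 without the c array of WT 0GH and -4.71 without the d array of WT 0GH. Averaged over receptor forms it was -0.15 without that c array and -2.09 without that d array.

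Id3, which shares E protein partners with Id1 and Id2, was below the array median on 9 of 12 arrays. Its levels were -2.70, -0.80 and -1.35 in NLS 1GH and -3.06, 0.04 and -2.48 in NLS 0GH for letters b, c and d. WT 1GH arrays gave 0.45, 0.09 and -2.74, and WT 0GH arrays -0.97, -0.95 and -2.13. The b arrays were the lowest of NLS at both GH numbers, while in WT the d arrays were the lowest at both. NLS minus WT was -0.68 (SE 0.73, 95% confidence interval -2.31 to 0.94, limma adjusted p = 0.950). That difference was 0.28 without the letter b arrays and -1.29 without those of letter d. The averaged 1GH minus 0GH difference ran from 0.11, without the b array of NLS 0GH, to 0.92, without the d array of WT 1GH.

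**Figure D4:**
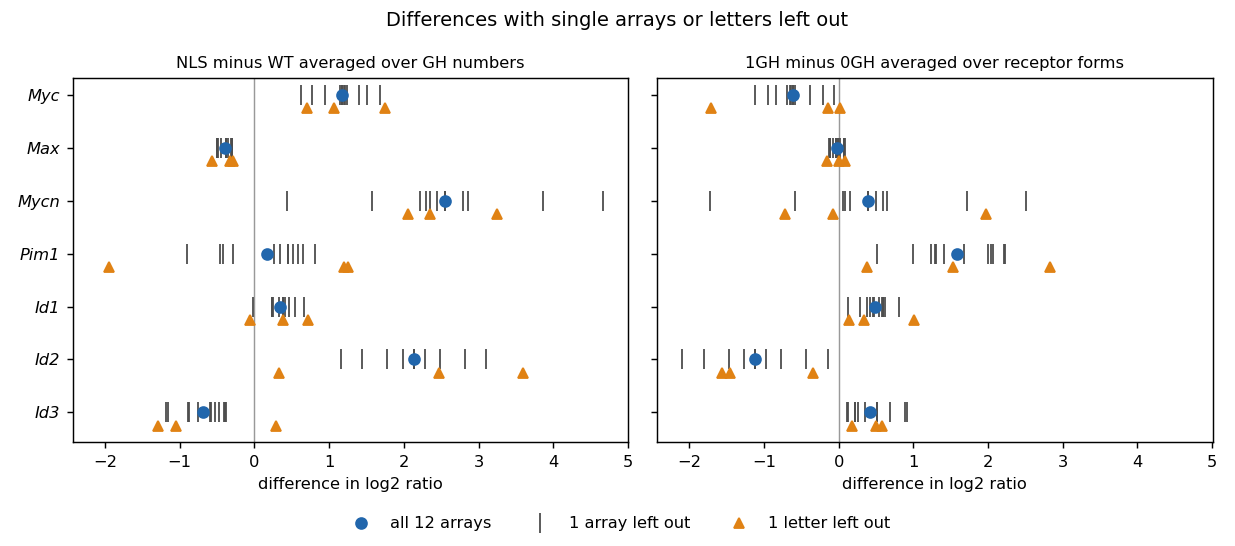
Difference of each tested member (log2, horizontal axis) for NLS minus WT averaged over GH numbers (left) and 1GH minus 0GH averaged over receptor forms (right), with all 12 arrays (circles), 1 array left out (ticks) or 1 letter left out (triangles). For NLS minus WT, Mycn lies between 0.43 and 4.67 and Pim1 between -1.95 and 1.25, on both sides of 0.

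The E proteins and other partners or relatives of ID proteins had 10 tested spots for 10 of 17 listed genes. Between NLS and WT averaged over GH numbers, 2 of 10 were above 0 with a median of -0.26, beside 46.9% of all spots. None passed in limma and 0 had an unadjusted p under 0.05, beside 5.65% of all spots. The smallest p was that of Smad5, which carries BMP signals to the nucleus, at -1.07 (SE 0.57, limma adjusted p = 0.917). For 1GH minus 0GH, 3 of 10 were above 0 with a median of -0.29, beside 51.5% of all spots.

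Among known targets of STAT5 and cytokines, 16 spots for 14 of 20 listed genes were tested. With GH numbers averaged, 11 of 16 differences of NLS minus WT were above 0 with a median of 0.09, and none passed in limma. Over all tested spots 46.9% were above 0. An unadjusted p under 0.05 was found for 2 spots higher in NLS and 2 lower, beside 2.57% and 3.08% of all spots. Junb, an AP-1 transcription factor, differed by 2.47 (SE 0.76, limma adjusted p = 0.836), and Fos, its partner, by 1.48 (SE 0.65). Ccnd3, a G1 cyclin, differed by -1.10 (SE 0.42) and Igf1, the growth factor induced by growth hormone in liver, by -3.80 (SE 1.64). For 1GH minus 0GH, 10 of 16 were above 0 with a median of 0.08, beside 51.5% of all spots. There 0 of 16 had an unadjusted limma p under 0.05, beside 3.41% of all spots. Of 9 spots for JAK and STAT signalling genes, 5 were above 0 for NLS minus WT, beside 46.9% of all spots. For 1GH minus 0GH, 3 were above 0, beside 51.5%. In these comparisons 0 of 9 had an unadjusted limma p under 0.05, beside 5.65% and 3.41% of all spots. The spot of Ghr, the growth hormone receptor itself, differed by 1.05 (SE 0.61, limma adjusted p = 0.922) for NLS minus WT.

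The spots most like each fully measured member were sought among 9189 other spots of named genes with 12 values, by Pearson's r over the 12 arrays. For Max they were 6720432D03Rik (r = 0.898) and Sh3bgr (r = 0.893), and for Id1 Twf1 (r = 0.891) and Ubfd1 (r = 0.878). Pim1 was most like Dlgap1 (r = 0.866) and Inpp5k (r = 0.861), and Id3 most like Natd1 (r = 0.866) and Srgap1 (r = 0.861). No member was among the most alike of another member, but Myc, Mycn, Id2 and Pim2 lacked values on some arrays and could not appear. The search therefore cannot say whether the members move together. These are the highest of many correlations over arrays that share a reference RNA and letters, given as a description.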

How the data were processed

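RNA of 12 samples was measured against embryonic reference RNA on 2-colour spotted arrays. The authors deposited Lowess-adjusted log ratios, read here as log2 from their range of -14.6 to 18.2, since no source used here names the base. Per the series' design text, 50.0% of the data entered each Lowess point and a control channel under 200 was set to 200. The numerator is not stated. Of 40 embryo genes with a value, 36 lay on the reference side once the sign was turned (median -4.29), so every ratio had its sign turned. Controls (902 of 23040 spots) were dropped, and each array was centred on its median. No source used here names the image software or the background correction.

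Comparisons were fitted with limma 3.58.1 in R 4.3.3, with lmFit, eBayes and two-sided tests over the 12 arrays, for 16063 spots with at least 2 values in each group. P-values were adjusted by Benjamini-Hochberg over these spots within a comparison, with a threshold of 0.05. Missing values were left missing and spots of a gene were tested apart. The fit was tested on simulated data. Members, lists and tests were chosen with earlier results of these data known. All members were named, and of each list at most the 4 genes of smallest p per comparison.

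Nothing in the labels says that a replicate letter marks a shared culture, so the fit had no block, and the letter as a replicate block was an alternative. The others were no centring, quantile normalization, robust regression, a trended robust prior, 2 other filters on missing values, values beyond scanner range set to missing, spots averaged by gene, and letters or arrays left out. Promoters came from RefSeq, and no genome positions were used for spots, since no source used here names a build for them.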

Additional observations from a re-analysis of the deposited data

How the results depend on the processing

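No tested member passed the adjusted threshold of limma in any of the 7 comparisons under the alternatives run (0 of 1155 values, 49 member differences, lowest adjusted p 0.168). The text names 20 of these 49. Over 9 alternatives that keep the arrays, 166 of their 169 values kept their direction and 3 turned. Pim1 turned to -0.11 for NLS minus WT under robust regression, Mycn to -0.91 for 1GH minus 0GH with the replicate block, and Max to 0.071 for 1GH minus 0GH under quantile normalization. With a letter or an array left out, 281 of 300 kept their direction and 19 turned, with a lowest adjusted p of 0.612. For NLS minus WT, the values then ran from -0.062 to 0.71 for Id1, -1.29 to 0.28 for Id3 and -1.95 to 1.25 for Pim1. For 1GH minus 0GH they ran from -0.15 to 0.086 for Max, -1.73 to 2.51 for Mycn and -1.71 to 0.013 for Myc. The filter asking for all 12 arrays gives no value for Myc, Mycn and Id2.

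Over all spots the count past the threshold was 0 in all 7 comparisons. Robust regression gave 167 spots for NLS minus WT averaged over GH numbers, 72 at 1GH, 167 at 0GH, 43 for 1GH minus 0GH averaged over receptor forms, 80 in NLS, 57 in WT and 24 for the interaction, with 0 of the 49 member differences among them. The cause was not tested. The averaged receptor comparison gave 1 spot with values beyond scanner range set to missing, and 0 to 1 with arrays or letters left out. With the replicate block Mycn's NLS minus WT difference was 3.15 (SE 1.21) and that of Id2 2.23 (SE 0.95). The block changed no call at the adjusted threshold. Mycn's unadjusted limma p was 0.041 with the block (adjusted p = 0.606), against 0.253 in the main fit, so it fell under 0.05 there. Correlations of deviations from group means were taken only for pairs of arrays from different groups. They were 0.0432 to 0.266 between arrays of one letter (18 pairs, 11245 spots) and -0.189 to 0.0637 between letters (36 pairs). Deviations of a group sum to 0, so a higher correlation within letters lowers that between letters, and these ranges are not separate observations. Among the arrays of other groups, each of the 12 arrays correlated best with one of its own letter. The labels tie the letters by a shared red dye incorporation and do not say what a letter stands for.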
